A study of Mus musculus with 6 samples.

Results

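The genes described here encode the proteins that fold, modify, export and process procollagen, the precursor of the collagen fibre. They were 37 genes picked by symbol from the 49315 in the deposited table, and all 37 were found. The list was drawn up by function after results of the same genotype comparison were known, so the differences of its members between genotypes are given as a description and support no claim about the list. RNA came from mouse embryonic fibroblasts, a mixed mesenchymal population grown out of embryos at E13.5, taken at passage 0 after 2 days in culture. The control group was Acvr1+/+ (wild type), with 3 libraries. The other group was Acvr1R206H/+, with 3 libraries, in which 1 copy of the gene for a type I receptor of bone morphogenetic proteins carries the substitution found in fibrodysplasia ossificans progressiva, a disease of bone formation in soft tissue. No treatment is named for either group. The strain, the sex of the embryos, how the allele was made and whether embryos were pooled: none of these is given in the sources used here. The design text asks which transcripts differ with the mutation and calls the libraries biological replicates.

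A procollagen chain is made into the endoplasmic reticulum (ER), where prolyl 4-hydroxylases stabilise the triple helix, lysyl hydroxylases prepare lysines for sugars and crosslinks, and a prolyl 3-hydroxylase complex modifies a few further prolines. The trimer is held by the collagen chaperone Hsp47 and by prolyl isomerases, leaves the ER in carriers built by the COPII coat, and loses its end propeptides outside the cell before it joins a fibril. In humans, faults in many of these genes cause brittle bones, lax joints or fragile skin, and fibroblasts are a main source of fibrillar collagen.

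Levels are in TPM, transcripts per 1000000, a share of the library corrected for gene length, so levels of different genes can be set side by side. A difference called a log2 change is that of log2(TPM + 1), with the wild-type mean taken from the R206H mean, and for genes with few TPM it is smaller than the change in TPM itself. A gene was called when its limma p, adjusted by Benjamini-Hochberg over all 14818 genes tested, was at most 0.05. The rebuilt depth was 17500000 to 24600000 reads a library. On the principal components of all genes tested, the first separated the genotypes and wild-type library 1 stood apart on the second, at 34.1 against -16.3 to 4.8 for the others. Acvr1 itself was measured at 34.7 ± 1.01 TPM in wild type and 44.4 ± 2.69 in R206H (SD, n = 3, limma adjusted p = 0.0511), which does not check the genotype labels because a substitution need not alter the level. All 8 fibroblast markers were detected in every library, with vimentin (Vim) at 2812 to 3485 TPM. Vim had a log2 change of -0.03, the other 7 had positive changes, and the median over the 8 was 0.59. Markers of other cells were present too. The 10 epithelial markers summed to 543 to 636 TPM in wild type and 196 to 399 in R206H, and the 4 mesothelial markers to 117 to 146 and 42.1 to 111. Most of the mesothelial sum was Msln, at 98.9 to 111 TPM in wild type and 26.4 to 58.2 in R206H, while Upk3b and Wt1 had log2 changes of 0.28 and 0.17. The 5 osteoblast markers summed to 43.5 to 106 TPM in wild type and 28.03 to 46.3 in R206H, and the 5 cartilage markers to 27.3 to 75.5 and 28.3 to 46.9. Of the cartilage markers, Sox9 had a log2 change of 0.41, and Acan, Col9a1, Matn1 and Cnmd had -0.46, -1.24, -2.26 and -1.81. These 4 were lowest within wild type in library 1, as for Matn1, at 0.742, 12.8 and 14.7 TPM in libraries 1 to 3. The osteoblast sum followed Ibsp, at 21.5 to 69.9 TPM in wild type and 0.331 to 14.005 in R206H, whereas Runx2, at 14.9 to 18.9 and 20.5 to 25.3 TPM, and Sp7 had log2 changes of 0.41. Endothelial markers summed to 13.63 to 27.98 TPM in wild type and 8.19 to 13.54 in R206H. Macrophage markers summed to at most 97.0 TPM and skeletal muscle markers to at most 666 TPM in any library. Both of these sums overlapped between genotypes, though Cd68, a macrophage marker, did not, at 10.7 to 13.3 TPM in wild type and 13.6 to 16.1 in R206H. Bglap was listed at 0 in R206H libraries 1 and 2, and Matn1 in R206H library 1. The part of these cells in the results below was not tested, and in bulk RNA fewer cells of a type and less RNA per cell cannot be told apart.

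Nearly every collagen-handling gene was at a higher level in the R206H libraries, by a modest margin. Of the 36 members tested, 34 had a positive log2 change, against 53.6% of all genes tested, and the median change was 0.42 against 0.02 over all genes. The 3 R206H values lay wholly above the 3 wild-type values in 27 of the 36, where 17.9% of all genes tested did so, and wholly below in 1, P3h2, where 15.0% did so. With limma 6 members passed the threshold, all higher in R206H (P4ha3, Plod3, P3h4, Fkbp9, Fkbp10 and Sec23a), none was lower, and 30 did not pass. Of these 36, 29 had an unadjusted p under 0.05, as did 26.1% of all genes. The share of all genes called higher was 1.26%, and 0.79% were called lower. Because the list was chosen with this contrast in view, nothing is read from these shares. A further 20 members had an adjusted p between 0.05 and 0.10, as did 10.0% of all genes. A second test, limma voom on read counts rebuilt from the TPM values, called 18 members higher, where 4.61% of all genes were called higher, and none lower, where 4.08% were. Most members had similar ratios, with 31 of 36 at an R206H mean between 1.1 and 1.6 times the wild-type mean. The exceptions were P4ha3, Adamts2 and Adamts3, at 2.04, 2.18 and 2.09 times, and P3h2 and Tmem38b, at 0.74 and 0.916 times.

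The number of calls moved with single libraries. Leaving out wild-type library 1, 2 or 3 gave 13, 1 or 0 members called by limma, and leaving out R206H library 1, 2 or 3 gave 12, 0 or 0. In the settings without wild-type library 3, R206H library 2 and R206H library 3, which called 0, an unadjusted p under 0.05 was held by 27, 26 and 27 members and by 17.3%, 20.8% and 18.9% of all genes. P4ha3 was the member called without wild-type library 2, and of the 6 only Fkbp10 was lost without wild-type library 1, where 1.48% of all genes were called higher. That share was 2.77% without R206H library 1, 0.0135% without wild-type library 2, 0.00675% without wild-type library 3 or R206H library 3, and 0.0% without R206H library 2. The median over the 36 members, taken on log2 values minus each gene's mean, was -0.04, -0.21 and -0.33 in wild type, libraries 1 to 3, and 0.12, 0.20 and 0.30 in R206H, libraries 1 to 3. On this median wild-type library 1 and R206H library 1 were the nearest across the genotypes. Epithelial markers had medians of 1.26, 0.29 and 0.73 in wild type and -0.17, -0.73 and -0.87 in R206H, and fibroblast markers -0.17, -0.34 and -0.47 and then 0.01, 0.25 and 0.59. The part of either in the members' values was not tested. Without wild-type library 1, 33 of 36 members lay wholly above, where 28.3% of all genes did.

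**Figure D1:**
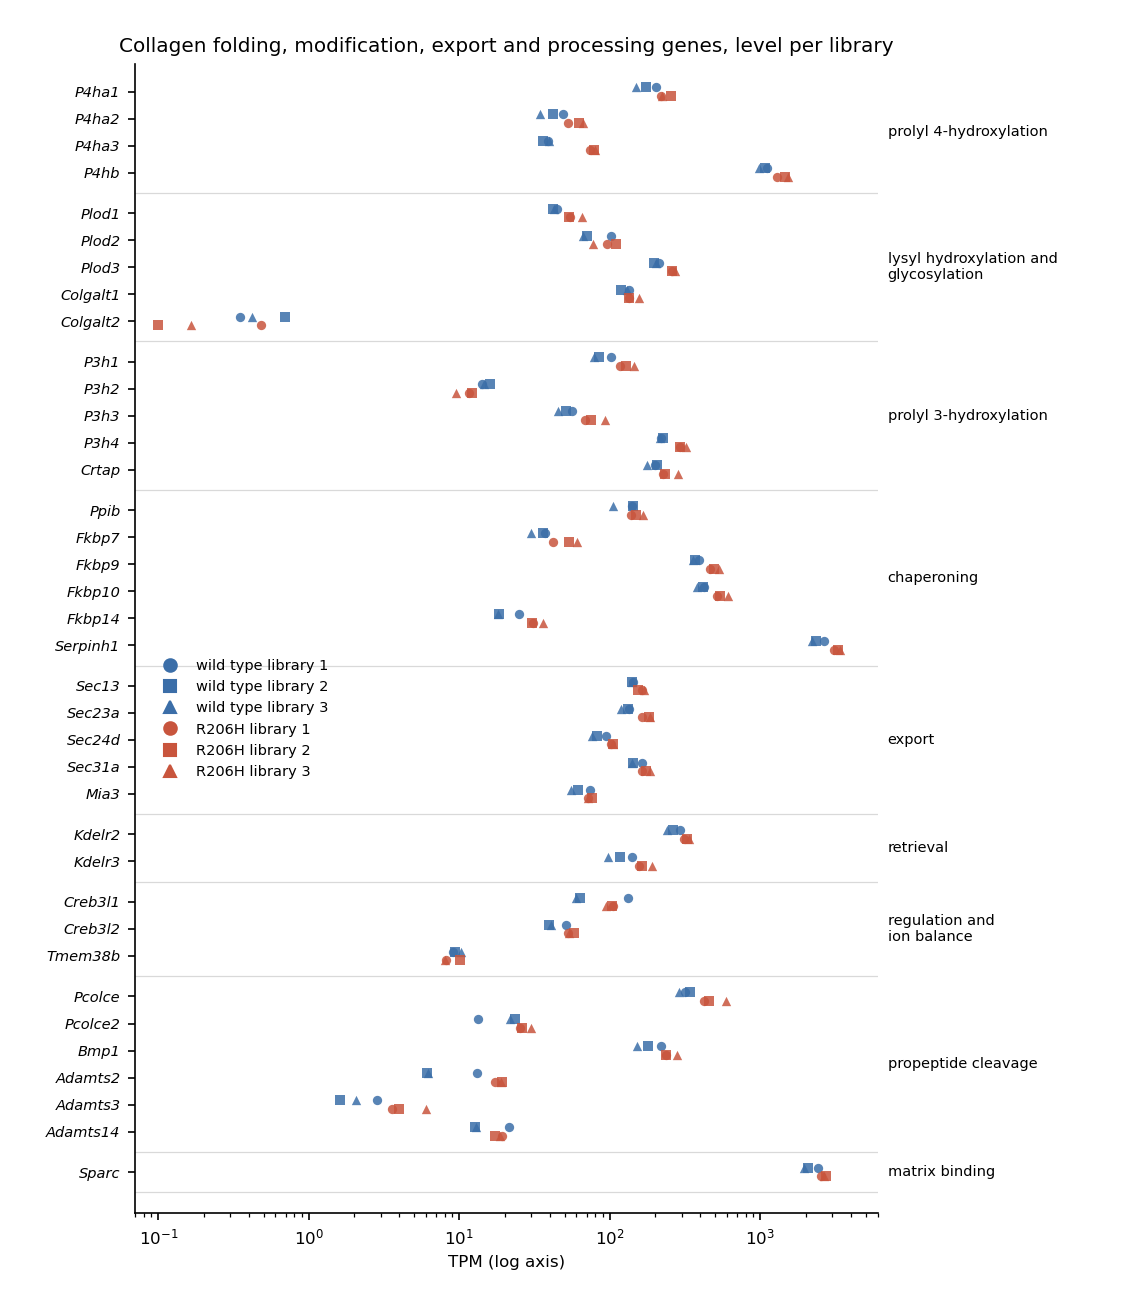
Level of each of the 37 members in each of 6 libraries, in TPM on a log axis, grouped by step. Blue marks are wild type and red marks R206H, with 1 shape per library. Red marks lie to the right of blue marks in 27 rows, and the reverse is seen for P3h2.

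Promoter sequence was available for 28 members, which had 32 start sites in the RefSeq table (GRCm38.p6). No window was used for Bmp1, Colgalt2, Creb3l1, Fkbp10, Kdelr2, P3h2, P3h4, Plod2 and Tmem38b. The 250 bases before each start were searched on both strands for 4 motifs. TGACGTGG, an element bound by factors of the unfolded protein response, was found in 3 windows, those of Sec24d, Kdelr3 and Adamts3, or 9.38%, against 0.563% of all 32851 windows and 0.722% of the 13019 windows of genes tested. GGCGCC, a GC-rich palindrome that BMP-branch SMAD proteins can bind, was found in 8 windows, or 25.0%, against 9.59% of all windows and 17.0% of those of genes tested. They belonged to P4ha2, P4ha3, Adamts2, Adamts14, Fkbp14, Mia3, Sec24d and Sec31a. The ER stress response element, which reads CCAAT, 9 bases of any kind and CCACG, was in 0 of 32 windows and in 0.113% of all. CCAAT, which forms part of that element, was in 9 of 32 windows, or 28.1%, against 33.8% of all. Each match is a stretch of letters and not a shown binding site. Shown are P4ha3 and Adamts2, which had the largest log2 changes of the members, and Sec24d and Kdelr3, an export and a retrieval gene that hold TGACGTGG. Each run is read 5′ to 3′ on the plus strand, which is the strand of all 4 genes, and capitals mark GGCGCC and TGACGTGG or its reverse complement. For Sec24d only 30 bases are printed, because GENCODE places that gene's start 41 bases upstream of the RefSeq start and its motifs lie between the starts. The runs cover chr7:100285270-100285519, chr11:50601835-50602084, chr3:123267456-123267485 and chr15:79516158-79516407.
P4ha3: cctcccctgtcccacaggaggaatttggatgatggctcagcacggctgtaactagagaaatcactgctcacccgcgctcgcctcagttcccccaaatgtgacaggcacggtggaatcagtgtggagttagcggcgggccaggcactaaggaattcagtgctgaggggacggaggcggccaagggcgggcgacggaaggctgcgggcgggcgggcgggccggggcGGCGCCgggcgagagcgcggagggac
Adamts2: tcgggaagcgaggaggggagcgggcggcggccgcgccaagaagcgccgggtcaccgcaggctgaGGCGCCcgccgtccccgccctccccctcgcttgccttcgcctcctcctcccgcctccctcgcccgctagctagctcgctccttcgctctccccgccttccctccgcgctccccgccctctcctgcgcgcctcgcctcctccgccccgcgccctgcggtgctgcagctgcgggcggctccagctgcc
Sec24d: cgcgcccgGGCGCCTGACGTGGcactagca
Kdelr3: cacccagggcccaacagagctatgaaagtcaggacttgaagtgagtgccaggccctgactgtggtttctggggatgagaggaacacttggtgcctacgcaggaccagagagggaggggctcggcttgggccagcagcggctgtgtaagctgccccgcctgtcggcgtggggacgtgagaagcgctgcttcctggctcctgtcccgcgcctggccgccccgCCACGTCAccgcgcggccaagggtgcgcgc
In P4ha3 the GGCGCC spans bases 26 to 21 before the start. In Sec24d the GGCGCC, at bases 32 to 27, runs directly into TGACGTGG, at bases 26 to 19. The Kdelr3 match, at bases 30 to 23, is on the minus strand, and that of Adamts2 lies farther out, at bases 186 to 181.

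The prolyl 4-hydroxylase is a tetramer of catalytic alpha subunits, encoded by P4ha1, P4ha2 and P4ha3, with the beta subunit P4hb, which is also protein disulfide isomerase. P4ha3 (chromosome 7, 100285520 to 100319699, GRCm38) gave the clearest difference of the list. It had 38.9, 35.9 and 39.2 TPM in wild type (libraries 1, 2 and 3 in this and all later series of values) and 74.2, 78.3 and 80.2 in R206H. The groups were far apart for their spread, at 38.0 ± 1.83 and 77.5 ± 3.06 TPM (SD, n = 3), and the log2 change was 1.01 (SE 0.06, limma adjusted p = 0.00600). Its p was the second smallest of the 14818 genes tested, and its adjusted p ran from 0.00306 to 0.106 over the alternative settings. P4ha1, the most abundant alpha subunit, had 202, 174 and 148 TPM in wild type and 219, 256 and 223 in R206H. P4ha2 had 48.7, 42.1 and 34.3 TPM in wild type and 52.6, 62.6 and 66.1 in R206H. Neither overlapped between genotypes and neither passed with limma (adjusted p = 0.0888 and 0.0806), though voom called both (adjusted p = 0.0490 and 0.0388). P4hb was far more abundant than any alpha subunit. Its values were 1105, 1077 and 973 TPM in wild type and 1296, 1452 and 1524 in R206H, a log2 change of 0.44 that just missed the threshold (SE 0.08, adjusted p = 0.0501).

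The make-up of the alpha subunits separated the libraries by genotype. P4ha3 made up 13.46%, 14.3% and 17.7% of the summed alpha subunit TPM in wild type and 21.4%, 19.7% and 21.7% in R206H. The share of P4ha1 was 68.5% ± 1.46 in wild type and 62.8% ± 2.11 in R206H, without overlap, and that of P4ha2 was 16.3% ± 0.776 and 16.3% ± 1.41. Alpha subunits of all kinds summed to 24.1 ± 1.81 TPM per 100 TPM of P4hb in wild type and 26.1 ± 1.62 in R206H, with overlapping ranges. The split among alpha subunits thus separated the genotypes, and the balance of alpha to beta transcripts did not.

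Lysyl hydroxylation and glycosylation were the work of 5 members, of which 1 was called and 1 was too low to test. Plod3, whose product hydroxylates lysine and also transfers glucose, had 212, 197 and 202 TPM in wild type and 259, 260 and 270 in R206H (chromosome 5, 136987019 to 136996648). The groups did not overlap, and the log2 change was 0.37 (SE 0.05, limma adjusted p = 0.0417). It was also the most abundant of its family, at 62.6% ± 2.97 of the Plod1 to Plod3 sum in wild type and 63.4% ± 1.94 in R206H. Plod1, which hydroxylates lysines in the helix, had 44.7, 41.7 and 42.6 TPM in wild type and 54.2, 53.2 and 65.6 in R206H (adjusted p = 0.0618). Plod2, which acts on the telopeptides that form crosslinks, overlapped between genotypes, with 101, 70.4 and 66.6 TPM in wild type and 95.3, 109 and 77.8 in R206H (log2 change 0.26, SE 0.18, adjusted p = 0.415). Its wild-type spread came from library 1. The galactosyltransferase gene Colgalt1 overlapped too, at 135, 119 and 130 TPM in wild type and 134, 134 and 156 in R206H (adjusted p = 0.308). Its relative Colgalt2 was nearly silent, at 0.0989 to 0.696 TPM over all libraries. The separate groups of this step were thus those of Plod1 and Plod3. Znhit1 overlaps Plod3 by 1003 bases on the opposite strand and was at 55.1 ± 1.95 TPM in wild type and 61.1 ± 7.54 in R206H.

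Prolyl 3-hydroxylation was the only step with a member wholly on the lower side. P3h1 and cartilage-associated protein (Crtap) form a complex with cyclophilin B (Ppib), while P3h3 and P3h4 work with Plod1 in lysyl hydroxylation. P3h4 had 219, 226 and 214 TPM in wild type and 293, 294 and 322 in R206H (log2 change 0.46, SE 0.06, limma adjusted p = 0.0362). Its partner P3h3 had 56.3, 50.7 and 45.1 TPM in wild type and 68.0, 74.7 and 93.2 in R206H (log2 change 0.62, SE 0.13, adjusted p = 0.0593). P3h1 showed the same order, with 101, 85.02 and 77.9 TPM in wild type and 116, 127 and 146 in R206H (adjusted p = 0.0593). Crtap averaged 194 ± 14.6 TPM in wild type and 249 ± 32.2 in R206H (adjusted p = 0.0940). All 4 genes had separate groups.

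P3h2, which acts mainly on basement membrane collagen, went the other way. It had 14.2, 16.0 and 14.5 TPM in wild type and 11.6, 12.1 and 9.45 in R206H, with no overlap. The log2 change, -0.41 with an SE of 0.11, did not meet the threshold (limma adjusted p = 0.0889, range over the alternatives 0.0528 to 0.231). Its share of the P3h1 to P3h3 sum was 8.29%, 10.6% and 10.6% in wild type and 5.91%, 5.66% and 3.81% in R206H. Epithelial markers, given above, were lower in the same libraries, and their part in the P3h2 values was not tested. Gm4524 overlaps P3h2 on the opposite strand and was at 2.01 ± 0.202 TPM in wild type and 1.17 ± 0.478 in R206H, and since the strand setting is unknown, reads of such pairs cannot be told apart.

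The chaperones included the most abundant member and 2 of the calls. Serpinh1 encodes Hsp47, which binds the finished triple helix in the ER. It had 2647, 2347 and 2215 TPM in wild type and 3097, 3261 and 3404 in R206H, a log2 change of 0.44 with separate groups (SE 0.08, limma adjusted p = 0.0501). The threshold was missed narrowly, and voom called it (adjusted p = 0.0204). Fkbp10, which encodes the collagen-binding prolyl isomerase FKBP65, had 424, 413 and 378 TPM in wild type and 513, 537 and 606 in R206H (log2 change 0.44, SE 0.08, adjusted p = 0.0476). Fkbp9, another ER isomerase gene, had 393, 369 and 355 TPM in wild type and 461, 492 and 531 in R206H (log2 change 0.41, SE 0.07, adjusted p = 0.0476). The lower-level isomerase genes had larger changes that did not pass. Fkbp14 had 24.8, 18.2 and 18.1 TPM in wild type and 30.7, 30.5 and 35.7 in R206H (log2 change 0.65, adjusted p = 0.0589). Fkbp7 had 37.1, 36.1 and 30.1 TPM in wild type and 41.8, 53.1 and 60.6 in R206H (log2 change 0.57, adjusted p = 0.0774). Ppib differed from the rest of the step, as its ranges overlapped, at 129 ± 20.2 TPM in wild type and 151 ± 13.7 in R206H (adjusted p = 0.278).

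Fkbp10 and P3h4, both called, are neighbours on chromosome 11 of GRCm38. P3h4 lies on the minus strand at 100408456 to 100414836 and Fkbp10 on the plus strand at 100415697 to 100424824, so their starts face away from each other across 860 bases. Fkbp10 was 1.94, 1.83 and 1.76 times as abundant as P3h4 in wild type and 1.75, 1.83 and 1.88 times in R206H. The ratio thus hardly varied over 6 libraries while each gene differed between genotypes. Whether other pairs of members kept as steady a ratio was not tested. On the means alone, 31 of 36 members stood at 1.1 to 1.6 times wild type in R206H. Fkbp9, on chromosome 6, was at 1.33 times, against 1.36 for Fkbp10 and 1.38 for P3h4. Nt5c3b overlaps Fkbp10 by 2504 bases on the opposite strand and was at 46.6 ± 4.69 TPM in wild type and 45.3 ± 0.691 in R206H.

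**Figure D2:**
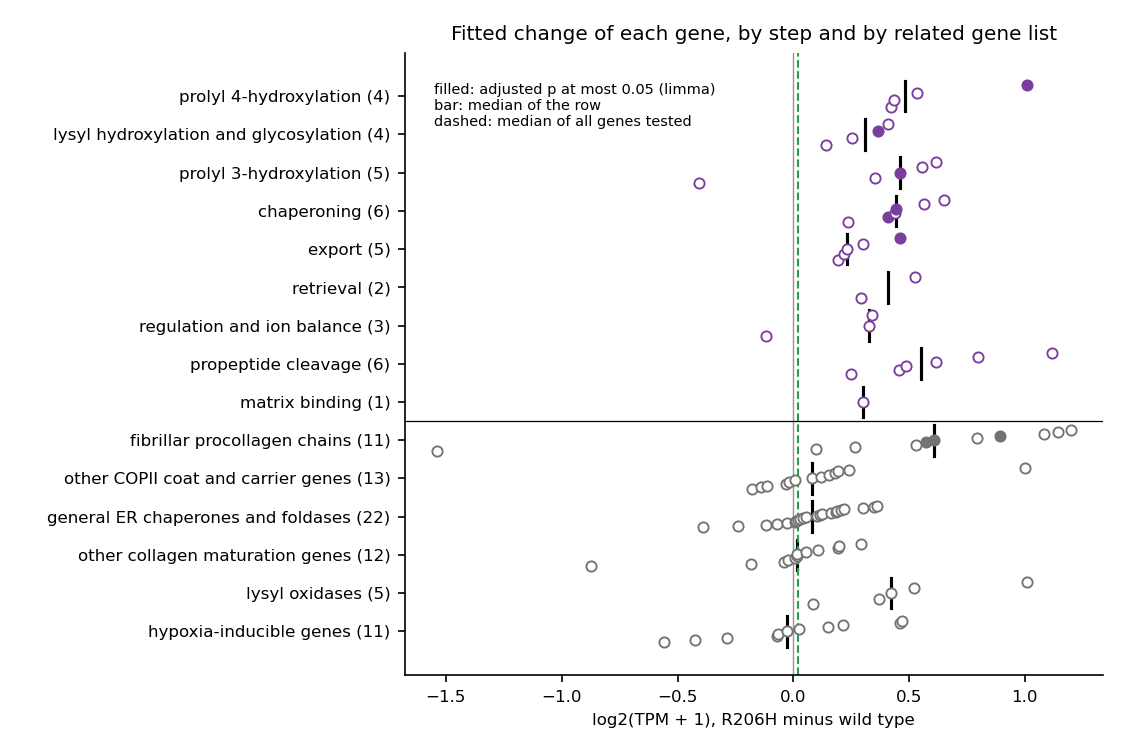
Fitted log2(TPM + 1) change, R206H minus wild type, of each gene tested, by step of the collagen pathway (purple, above the line) and for 6 related lists (grey). Filled points passed an adjusted p of 0.05 with limma, bars are row medians, and the dashed line is the median of all genes, 0.02. The steps have medians from 0.23 for export to 0.55 for propeptide cleavage, and general ER chaperones one of 0.08.

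Export used 5 members, and their changes were small apart from that of Sec23a. Sec23a encodes an inner COPII coat protein that pairs with the Sec24 cargo adaptors. It had 133, 133 and 118 TPM in wild type and 164, 182 and 184 in R206H (chromosome 12, 58958383 to 59012017), a log2 change of 0.46 (SE 0.07, limma adjusted p = 0.0458). Its paralog Sec23b overlapped between genotypes, at 46.9 ± 1.55 TPM in wild type and 47.2 ± 0.498 in R206H. Sec23a therefore made up 73.4%, 73.6% and 72.4% of the summed TPM of both in wild type and 77.7%, 79.2% and 79.7% in R206H. Sec24d, the paired cargo adaptor, had 94.4, 82.5 and 75.8 TPM in wild type and 101, 104 and 105 in R206H (log2 change 0.30, SE 0.08, adjusted p = 0.0875). It took 28.9% ± 1.404 of the summed TPM of Sec24a to Sec24d in wild type and 32.8% ± 0.149 in R206H, without overlap. The outer coat gene Sec31a overlapped through wild-type library 1, with 163, 143 and 140 TPM in wild type and 163, 175 and 186 in R206H (adjusted p = 0.132). Sec13, the other outer coat gene, averaged 142 ± 1.03 TPM in wild type and 162 ± 7.16 in R206H (adjusted p = 0.0847). Mia3 encodes TANGO1, the receptor that loads bulky procollagen into COPII carriers. Its ranges overlapped as well, at 73.8, 61.1 and 55.5 TPM in wild type and 72.0, 76.6 and 72.0 in R206H (adjusted p = 0.233).

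The KDEL receptors, which return escaped ER proteins from the Golgi, are the retrieval genes of the list. Kdelr3 had 141, 117 and 97.3 TPM in wild type and 155, 163 and 192 in R206H (log2 change 0.53, SE 0.14, limma adjusted p = 0.0836, voom adjusted p = 0.0410). Kdelr2 had 290, 263 and 241 TPM in wild type and 309, 328 and 334 in R206H (log2 change 0.29, SE 0.08, adjusted p = 0.0802). Both had separate groups. The third receptor, Kdelr1, had a log2 change of 0.29 (adjusted p = 0.0736), and the share of Kdelr3 among the 3 was 22.2% ± 1.80 in wild type and 25.1% ± 1.25 in R206H, without overlap. Kdelr3 shares 4 bases with Ddx17, a gene on the opposite strand at 254 ± 14.4 and 277 ± 7.96 TPM.

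The regulators depended on wild-type library 1. Creb3l1 encodes OASIS, a membrane-bound factor released from the ER that drives type I collagen transcription in bone. It had 132, 63.1 and 59.6 TPM in wild type and 105, 103 and 94.7 in R206H. Library 1 of wild type was the highest of all 6 while the other two were the lowest, so the log2 change of 0.34 had an SE of 0.28 (limma adjusted p = 0.483). Without that library the adjusted p was 0.0365. Creb3l2, its relative known for Sec23a induction in cartilage, had 51.1, 39.5 and 40.5 TPM in wild type and 53.0, 57.9 and 53.3 in R206H (log2 change 0.33, adjusted p = 0.117, and 0.0483 without wild-type library 1). Tmem38b, which encodes the ER potassium channel TRIC-B, had 9.13, 9.32 and 10.2 TPM in wild type and 8.13, 10.0 and 8.08 in R206H, with overlap (log2 change -0.12, adjusted p = 0.560).

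Propeptide cleavage had the highest median log2 change of the steps, 0.55 over 6 members, but no call with limma. An unadjusted p under 0.05 was held by 5 of them, as by 26.1% of all genes. Voom called 3 higher, where 4.61% of all genes were called higher. The N-proteinases remove the amino-terminal propeptide. Adamts2, the main N-proteinase of type I and type III procollagen, had 13.1, 6.13 and 6.18 TPM in wild type and 17.2, 19.3 and 19.0 in R206H. Its log2 change was 1.12 (SE 0.26, limma adjusted p = 0.0671, and 0.0164 without wild-type library 1), the largest of the list. Adamts3 had 2.85, 1.61 and 2.04 TPM in wild type and 3.59, 3.98 and 6.02 in R206H (log2 change 0.80, SE 0.23, adjusted p = 0.0939). Both had separate groups, whereas Adamts14 overlapped, at 15.7 ± 4.97 TPM in wild type and 18.3 ± 1.07 in R206H (adjusted p = 0.449). The order of the N-proteinases differed with it. Adamts2 made up 35.1%, 30.1% and 29.2% of their summed TPM in wild type and 43.04%, 47.8% and 43.4% in R206H. Adamts14 made up 60.2% ± 2.53 in wild type and 44.4% ± 3.12 in R206H, so that it led in wild type and had about the share of Adamts2 in R206H.

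At the carboxyl end, Bmp1 encodes the C-proteinase and Pcolce the glycoprotein that enhances it. Pcolce had 318, 342 and 289 TPM in wild type and 421, 456 and 590 in R206H (log2 change 0.62, SE 0.13, limma adjusted p = 0.0593). Its relative Pcolce2 had 13.4, 23.4 and 21.8 TPM in wild type and 25.2, 26.3 and 29.8 in R206H (log2 change 0.49, SE 0.20, adjusted p = 0.178), with wild-type library 1 the lowest of all. Bmp1 averaged 184 ± 33.9 TPM in wild type and 250.3 ± 24.4 in R206H (adjusted p = 0.0997). All 3 had separate groups, and the ratio of Pcolce to Bmp1 overlapped, at 1.75 ± 0.263 in wild type and 1.94 ± 0.175 in R206H. Sparc, a matrix glycoprotein that binds fibrillar collagen and guides fibril assembly, was the second most abundant member. It had 2405, 2082 and 1960 TPM in wild type and 2536, 2732 and 2661 in R206H (log2 change 0.30, SE 0.09, adjusted p = 0.0926).

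**Figure D3:**
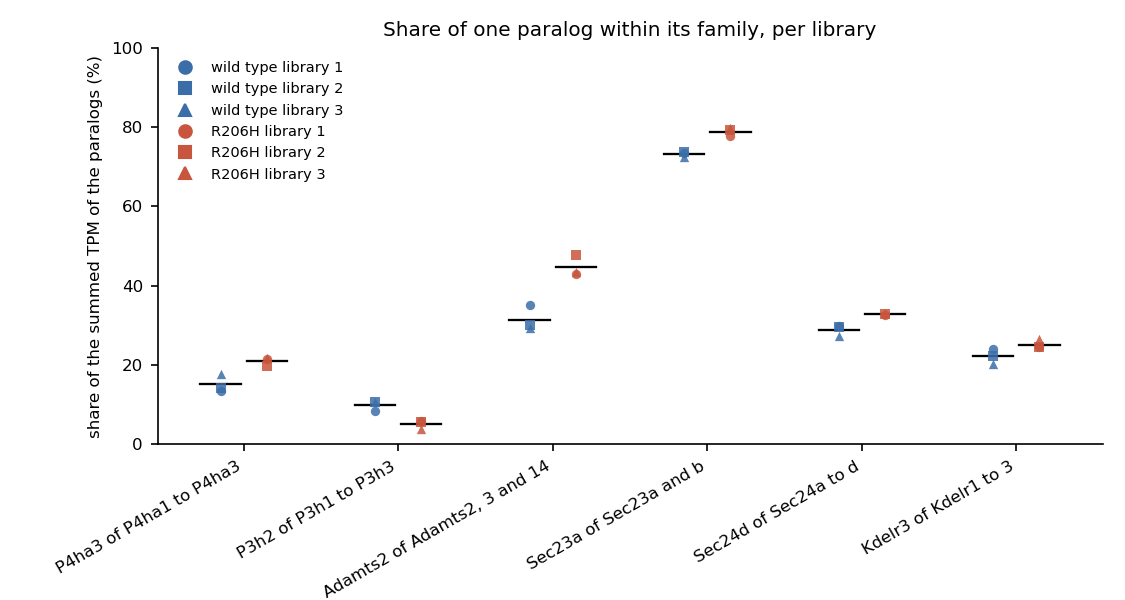
Share of 1 paralog in the summed TPM of its family, in percent, for 6 families in each of 6 libraries. Blue is wild type, red is R206H and bars are means. P4ha3, Adamts2, Sec23a, Sec24d and Kdelr3 have higher shares in the R206H libraries and P3h2 a lower share, with no overlap between genotypes. The paralogs shown were picked after their values were seen. Among the shares not shown, those of P4ha1, P3h3, Adamts14 and Kdelr2 did not overlap either. Those of P4ha2, P3h1, Plod1, Plod2, Plod3, Adamts3 and Kdelr1 overlapped.

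The 11 fibrillar procollagen chain genes summed to 5079, 3488 and 2901 TPM in wild type and 6378, 7789 and 9007 in R206H, 2.02 times as much on the means. Col1a1, a chain of type I collagen, made up 51.8% to 63.5% of that sum in the 6 libraries, and the other 10 chains summed to 1609 ± 238 TPM in wild type and 2844 ± 441 in R206H, 1.77 times as much. By gene the chains were less uniform than their sum, with a median log2 change of 0.61. The 37 members summed to 10367, 9364 and 8691 TPM in wild type and 11737, 12513 and 13121 in R206H, 1.31 times as much. Most of this sum came from Serpinh1, Sparc and P4hb, at 2403, 2149 and 1052 of 9474 TPM on the wild-type means. By gene the members had a median log2 change of 0.42. Within a library, which removes any scaling between libraries, the members therefore summed to 204, 268 and 300 TPM per 100 TPM of fibrillar chains in wild type and 184, 161 and 146 in R206H. The ratio was lower in every R206H library than in every wild-type library, by a factor of 0.635 on the means (0.575 to 0.692 with each library left out in turn). With Col1a1 left out of the chains, an alternative chosen after seeing the data, the factor was 0.747, and the groups did not overlap. All 9 steps had this order, but they share the same denominator, and a list that varied little shows it too. General ER chaperones summed to 8140 ± 419 TPM in wild type and 8734 ± 296 in R206H, and had 223 ± 51.0 and 115 ± 18.1 TPM per 100 TPM of fibrillar chains. The common order is therefore not 9 separate results. Chaperones had 91.5 ± 17.7 TPM per 100 TPM of fibrillar chains in wild type and 59.5 ± 7.03 in R206H, and prolyl 4-hydroxylase subunits 35.6 ± 7.22 and 23.5 ± 2.37. Export genes had 15.4 ± 3.21 and 9.07 ± 1.24, and lysyl modification genes 12.4 ± 2.77 and 7.33 ± 1.11. Propeptide cleavage genes came closest to keeping pace, with 14.8 ± 2.81 and 10.5 ± 0.812, and no difference between steps was tested. For Hsp47 and its main client, Serpinh1 stood at 70.7, 101 and 124 TPM per 100 TPM of Col1a1 and Col1a2 together in wild type and at 66.5, 56.4 and 50.2 in R206H. Of the 11 chains 3 were called by limma, all higher in R206H, where 1.26% of all genes were called higher. Among the 3 were Col5a1 and Col5a2, with log2 changes of 0.89 and 0.61 (limma adjusted p = 0.0476 and 0.0454). Voom called 7 higher and 1 lower, where 4.61% and 4.08% of all genes were so called. The lower one was Col11a2, a chain of type XI collagen, named after its values were seen, with 6.18, 13.96 and 17.4 TPM in wild type and 2.05, 6.48 and 2.52 in R206H (log2 change -1.54, limma adjusted p = 0.0939, voom adjusted p = 0.0471). Its ranges overlapped, as did those of Col2a1, Col5a3 and Col27a1, whose R206H means were 1.17, 1.27 and 1.08 times the wild-type means.

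**Figure D4:**
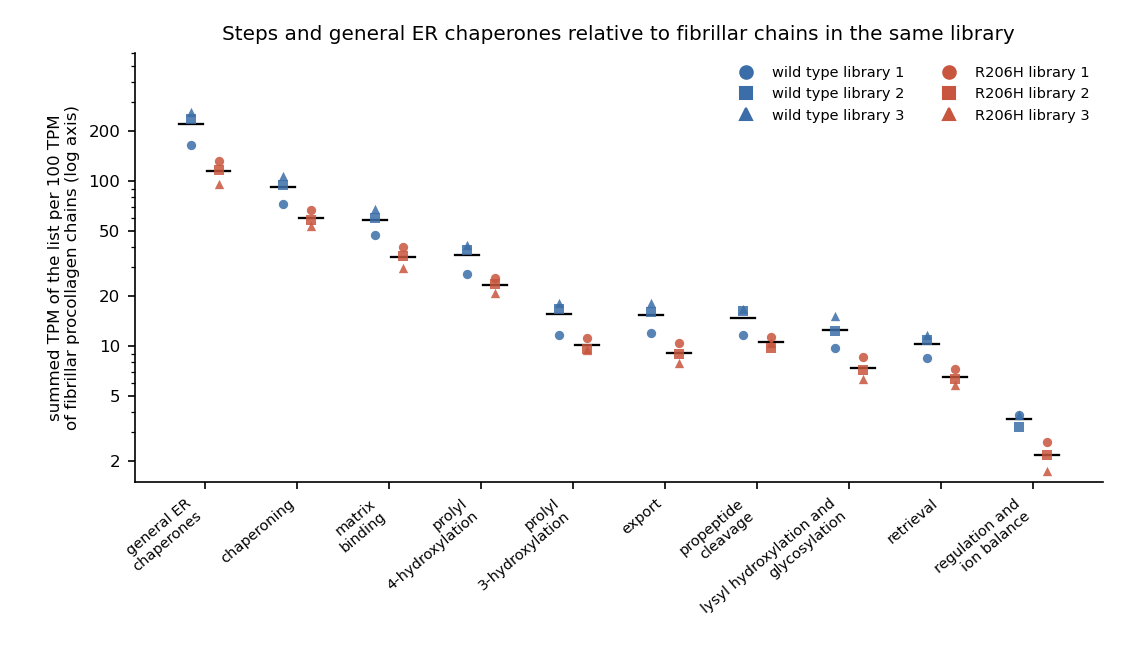
Summed TPM of each step and of general ER chaperones per 100 TPM of fibrillar procollagen chains in the same library, on a log axis, with 6 libraries a list, blue for wild type, red for R206H and bars for means. The R206H marks lie below the wild-type marks for all 9 steps, which share the denominator, and also for general ER chaperones, at 115 against 223 on the means.

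Other parts of the secretory pathway had medians nearer that of all genes, 0.02. For the counts here and in the next paragraph, 26.1% of all genes had an unadjusted p under 0.05. Limma called 2.04% of all genes, and voom called 4.61% higher and 4.08% lower. Of 22 general ER chaperones and foldases tested, none was called by limma or by voom, and the median log2 change was 0.08. An unadjusted p under 0.05 was held by 9. Among these, Ero1l and Sdf2l1, named after their values were seen, had negative changes without overlap, -0.39 and -0.24, and the rest positive ones. The smallest p-values were those of Txndc5, a disulfide isomerase gene, and Xbp1, a factor of the unfolded protein response, with log2 changes of 0.22 and 0.35 (limma adjusted p = 0.0802 and 0.0904). Hspa5, the gene of the main ER chaperone BiP, was named after its values were seen. It had 969, 946 and 889 TPM in wild type and 960, 992 and 938 in R206H, with overlap. Serpinh1 was 2.73, 2.48 and 2.49 times Hspa5 in wild type and 3.23, 3.29 and 3.63 times in R206H. Of 13 other COPII genes tested, with a median of 0.08, none passed with limma and 3 had an unadjusted p under 0.05. Voom called 1, Sec16b, at 2.76 ± 0.854 TPM in wild type and 6.48 ± 1.47 in R206H. Tfg, which organises ER exit sites, had a log2 change of 0.24 (limma adjusted p = 0.0926).

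Of 12 other collagen maturation genes tested, none passed with limma, 2 had an unadjusted p under 0.05 and voom called 1. That was Tll1, which encodes a proteinase of the Bmp1 family, and its log2 value was negative. Tll1 had 34.0, 32.1 and 40.2 TPM in wild type and 26.8, 19.9 and 12.4 in R206H (log2 change -0.87, SE 0.25, limma adjusted p = 0.0926, voom adjusted p = 0.0388). It thus stood opposite to Bmp1, although at far lower levels. The list had a median of 0.02. None of the 5 lysyl oxidases, the crosslinking enzymes, passed with limma, while 3 had an unadjusted p under 0.05 and voom called Loxl3 and Loxl1, with log2 changes of 1.01 and 0.42 (limma adjusted p = 0.0613 and 0.0629). Their median was 0.42. Of 11 hypoxia-inducible genes, none passed with limma, 4 had an unadjusted p under 0.05, the median was -0.03, and voom called 1, Ndrg1, with a log2 change of -0.56. Slc2a1, a glucose transporter gene, had -0.29 (limma adjusted p = 0.159). The other two with such a p, named after their values were seen, had positive values, Bnip3 0.47 and Ldha 0.15.

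**Figure D5:**
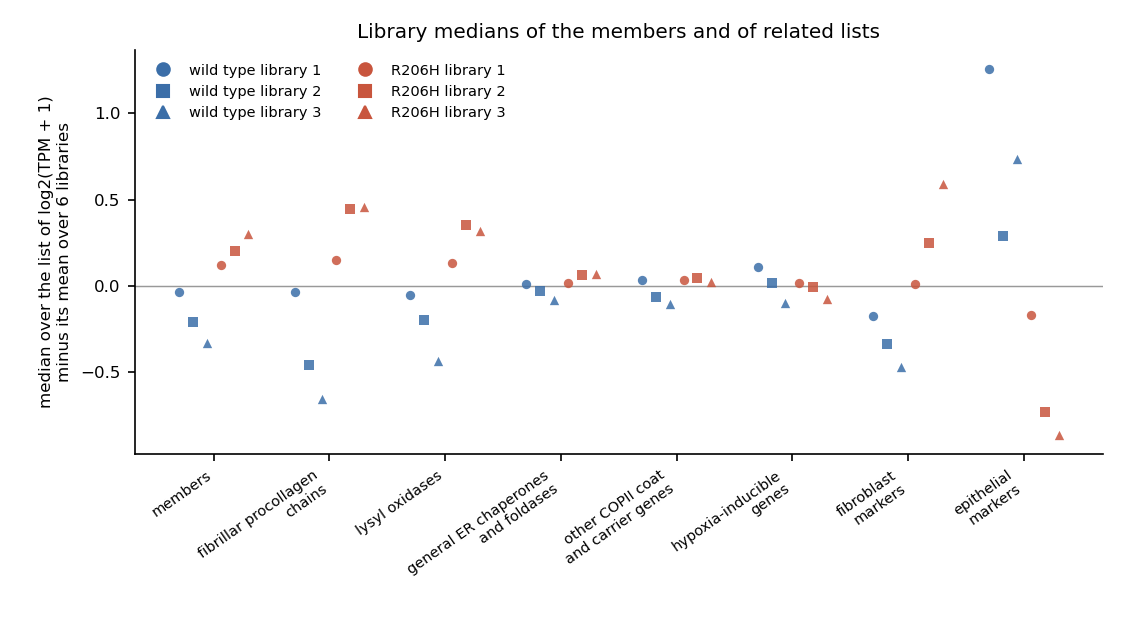
Median over each list of log2(TPM + 1) minus the gene's mean over 6 libraries, for the members and 7 other lists. Blue is wild type and red is R206H. The members run from -0.33 to 0.30. Fibrillar chains, fibroblast markers and general ER chaperones rank the libraries in the same order, though the chaperones stay between -0.08 and 0.07. Epithelial markers, from 1.26 to -0.87, are lower in R206H but, like the members, are highest within wild type in library 1.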

How the data were processed

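RNA was sequenced from 6 libraries after ribosomal RNA depletion, as paired 150 bp reads, per the labels' protocols. The authors deposited TPM per Ensembl gene, and each library sums to 1000000. Trimmomatic, STAR, Subread, featureCounts and DESeq2 are named, with mm10 and GRCm38 and no roles, per the submitters' processing notes. For annotation release, gene lengths and strand setting, nothing is given in the sources used here. Each TPM value is a share of the library, so abundant transcripts affect all others, and total RNA includes unspliced transcripts.

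A gene entered the test when 3 or more libraries had TPM of 1 or above. The test was limma 3.58.1 under R 4.3.3, on log2(TPM + 1) (lmFit, eBayes with trend, two-sided, Benjamini-Hochberg at 0.05). Of the members, 36 of 37 passed this filter, and Colgalt2 did not. Reads were rebuilt for voom from TPM and exon-union lengths of GENCODE M21 (49056 of 49315 identifiers matched). Between 91.2% and 91.5% of values under 100 reads came out whole within 0.05. The library sum of these reads was taken as the depth, and 1 read on a gene of 100 nt was worth 1.48 to 2.12 TPM. The fits were tested on simulated data. There both tests made false calls, limma more than voom. Limma missed most of the smallest changes and voom part of them, and both missed some of the next smallest. Tables were joined and figures drawn with pandas 2.3.3 and matplotlib 3.10.9 under Python 3.11.15.

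The members and lists were chosen with earlier results of these data known. Values in every library are given for called members and, per step, up to 4 with the largest absolute log2 change and a mean of at least 1 TPM in either genotype. Of each other list, the 2 genes with the smallest p are named. Hspa5, Sec23b, Vim, the other cell markers, Col1a1, Col1a2, Gm4524, Znhit1, Nt5c3b, Ddx17 and the paralog families were named after their values were seen. Protein sequences were not used here. Alternatives were other pseudocounts, filters, scaling and tests, a replicate block, and leaving out each library.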

Additional observations from a re-analysis of the deposited data

How the results depend on the processing

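The members' median log2 change stayed between 0.37 and 0.47 under the 14 alternatives computed. The number of calls did not keep its size. Of all genes, 303 were called, and 129 with a pseudocount of 0.1, 2 with no filter, 587 when TPM had to reach 5 in 3 libraries, 27 with no mean-variance trend and 1284 with limma voom on rebuilt reads. Leaving out 1 library gave 0 to 722. Of the members, 6 were called, and 1 with no filter, 13 at TPM of 5, 1 with no trend and 18 with voom. Leaving out 1 library gave 0 to 13. P4ha3 was the member called in the settings with 1 call. Pseudocounts of 0.1 and 5 gave 4 and 6 members and median-of-ratios scaling gave 6. With the replicate number as a block, limma called 0 genes and 0 members, while 3301 genes and 28 members had an unadjusted p under 0.05, and voom, without the block, called 1284 and 18. Libraries of the same number deviated from their group means with correlations of 0.02, 0.06 and -0.03, and the labels name no shared litter, so the numbers were not taken to pair them. The filters change how many genes are adjusted for, and leaving out a library or adding the block removes degrees of freedom. Without R206H library 1 the number of genes called was nevertheless higher, at 722. Why the number of calls moved was not tested for any setting. The ratio of summed TPM, R206H to wild type, of each step with 1 library left out lay between 1.08 and 1.56. Groups of 3 libraries limit the precision throughout.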
